A study of Mus musculus with 6 samples.

Results

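Scx, Tnmd, Mkx, Sox5, Sox6, Sox9, Acan, Matn1, Runx2 and Egr2, 10 of the 28000 genes in the tables, are regulators and products of tendon, cartilage and bone. They were taken by symbol from 6 droplet libraries of embryonic mouse skin, which count unique molecular identifiers (UMIs, tags that mark 1 captured transcript each). The libraries came from dorsolateral and flank skin of CD1 embryos, pooled over 3 to 4 embryos each, dissociated, and sorted by exclusion of DAPI, a dye that enters dead cells. They read the 3′ ends of transcripts. The question asked here was in which cells these genes are found in skin, and how their levels vary with stage and with loss of beta-catenin in fibroblasts.

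All 4 groups were given by the labels. Wild type is the label of the controls, with 2 libraries each from embryonic days 13.5 (E13.5) and 14.5 (E14.5). Loss of function (LOF) had 1 library per stage, from embryos of genotype PDGFRalphaCreER(Lo);beta-catfl/fl;mTmG, in which a tamoxifen-activated Cre driven by Pdgfra, a receptor gene of dermal fibroblasts, deletes floxed beta-catenin and switches the mTmG reporter from Tomato to GFP. Tamoxifen was given by mouth at E11.5. The labels name 30 and 15 µg per g body weight and do not say what each of these doses belongs to. For controls no tamoxifen is recorded, so genotype and drug cannot be told apart. With 1 LOF library per stage, a difference within a stage has no replicate check. Pooled embryos cannot be separated, and where nothing in the labels says that replicate libraries came from separate litters, p-values measure only the spread between these libraries.

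Libraries held 6096 to 9152 barcodes and 53461986 to 86446575 UMIs, and 38397 of 41594 barcodes were used after filters and removal of predicted doublets. Pairs of libraries shared 45 to 103 barcodes. Several libraries stood apart from what their labels say. In fibroblasts, eGFP was at 117 and 89.0 UMIs per 1000000 UMIs of the class (CPM) in E13.5 and E14.5 control replicate 2, against 2.95 and 5.55 in replicate 1 of each stage and 329 and 312 in the LOF libraries. Keratinocytes of all 4 libraries labelled wild type held tdTomato, at 38.7 to 1023 CPM. Ctnnb1, the targeted gene, was at 174 to 192 CPM in control fibroblasts and at 242 and 196 CPM in E13.5 and E14.5 LOF, but 3′ reads outside the floxed part would check nothing, and where that part lies is not given in the sources used here. The transcript Gm42418 was at 1669 CPM in replicate 1 of the E14.5 controls and at 1081 CPM in LOF of that stage, against 53.7 to 77.7 CPM in the other 4 libraries. Genotype was therefore also fitted without the 2 control libraries that hold eGFP, and with pairs of libraries set by Gm42418 and Gstp1 as a covariate.

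As background, tendon progenitors are marked by the basic helix-loop-helix factor Scx, and the homeobox factor Mkx and the zinc-finger factor Egr2 act with it in tendon matrix production, while the membrane protein tenomodulin (Tnmd) is a product of maturing tendon. Cartilage is specified by Sox9, which acts with the related factors Sox5 and Sox6 on cartilage matrix genes such as the proteoglycan aggrecan (Acan) and matrilin 1 (Matn1), and Runx2 is the main factor of bone formation. In skin, Sox9 is also a factor of hair follicle epithelium, and Sox5 and Sox6 are known from neural crest derivatives such as pigment cells and glia.

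The promoters of the structural products Tnmd, Acan and Matn1 are shown because these are the genes on which the tendon and cartilage factors act. Each stretch is the 250 bases upstream of the start in the RefSeq table of build GRCm38.p6, on the plus strand, at chrX:133850758-133851007 for Tnmd, chr7:79052976-79053225 for Acan and chr4:130944135-130944384 for Matn1. Capitals mark the E-box CANNTG, the general site of basic helix-loop-helix factors such as Scx, and ACAAAG or ACAATG, short sites of SOX factors, searched on both strands.
Tnmd: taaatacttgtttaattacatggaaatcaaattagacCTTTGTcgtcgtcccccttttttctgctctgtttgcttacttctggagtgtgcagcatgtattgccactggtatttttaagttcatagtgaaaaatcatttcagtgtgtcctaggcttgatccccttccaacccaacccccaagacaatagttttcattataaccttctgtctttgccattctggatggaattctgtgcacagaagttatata
Acan: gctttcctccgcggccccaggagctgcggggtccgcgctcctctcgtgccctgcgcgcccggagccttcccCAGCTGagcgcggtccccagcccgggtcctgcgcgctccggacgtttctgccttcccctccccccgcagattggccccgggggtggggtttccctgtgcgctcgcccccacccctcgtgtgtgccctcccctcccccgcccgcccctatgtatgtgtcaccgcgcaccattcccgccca
Matn1: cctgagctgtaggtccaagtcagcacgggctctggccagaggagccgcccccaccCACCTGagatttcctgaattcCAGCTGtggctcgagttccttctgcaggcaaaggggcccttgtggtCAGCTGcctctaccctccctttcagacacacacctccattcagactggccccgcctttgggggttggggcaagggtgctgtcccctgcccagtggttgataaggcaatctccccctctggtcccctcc
The Tnmd stretch held 1 ACAAAG, read on the minus strand, and 0 E-boxes, the Acan stretch 1 E-box and the Matn1 stretch 3 E-boxes, with 0 SOX letters in the last 2. Of 32851 such stretches of the same length, 66.2% held an E-box, 16.5% ACAAAG and 10.7% ACAATG. A match is a description of the letters only. Of the 10 genes, 7 had an entry that was used.

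The genes lie on GRCm38 at chr15:76457452-76459458 (Scx), chrX:133850980-133865577 (Tnmd), chr18:6934518-7004780 (Mkx), chr10:67535475-67542188 (Egr2), chr11:112782224-112787760 (Sox9), chr6:143828425-144781977 (Sox5), chr7:115470872-116038796 (Sox6), chr7:79053483-79115099 (Acan), chr4:130944385-130955475 (Matn1) and chr17:44495987-44814797 (Runx2). In the annotation, 5 of the 10 overlap another gene. Scx lies on the opposite strand to Bop1, a ribosome assembly gene that ranged from 13.5 to 28.7 CPM in fibroblasts, and Runx2 on the opposite strand to Supt3, which ranged from 14.8 to 29.9 CPM. Where a count did not use strand, reads of such pairs could not be told apart, and use of strand is not given in the sources used here. Bop1 was at 28.7 and 24.7 CPM in fibroblasts of E13.5 controls, at 17.7 and 19.6 CPM in those of E14.5 and at 23.7 and then 13.5 CPM in LOF, so it lay lower at E14.5, as Scx did. In keratinocytes Bop1 held 20.1 to 34.6 CPM and Scx 0.0455 to 0.912 CPM. The part of such reads in the Scx values was not tested.

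Cells were assigned by marker rules. Fibroblasts (at least 15 UMIs of Col1a1, Col1a2 and Col3a1 together and at most 5 of Col2a1) numbered 2840 to 4477 per library and 22679 in all. Chondrocytes (at least 10 UMIs of Col2a1, the main collagen of cartilage) numbered 30 in E13.5 control replicate 1, 57 in E13.5 LOF, 3 in E13.5 control replicate 2, 1 in E14.5 control replicate 1 and 0 in the other 2. They are therefore described from 2 E13.5 libraries. Keratinocytes, muscle cells, Schwann cells, melanoblasts, endothelial cells, macrophages and mast cells were assigned by at least 5 UMIs of their own marker lists, thresholds that were set after the data were seen. Just outside the rules, 66 to 460 cells per library held 10 to 14 UMIs of the 3 fibroblast collagens and 0 to 17 held 6 to 9 UMIs of Col2a1, and just inside, 68 to 536 held 15 to 19 collagen UMIs. Between 1.45% and 8.23% of fibroblasts also met another class's list.

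The labelled tissue was checked against its markers. The fibroblast list summed to 6650 to 17927 CPM in fibroblasts and the chondrocyte list, of which 7 of 8 genes were found, to 3635 to 3814 CPM in chondrocytes, against 33.7 to 90.9 CPM in fibroblasts. In fibroblasts the muscle list summed to 38.5 to 212 CPM, the Schwann list to 7.48 to 31.4 CPM and the pericyte list to 38.3 to 104 CPM. The part that these cells have in the values below was tested only where a fit without fibroblasts that meet another list is given.

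The class with the highest level differed between the 10 genes, and for most of them the ranges of classes overlapped. By the median over libraries, Sox9, Scx, Sox6, Acan and Matn1 were highest in chondrocytes, Tnmd and Runx2 in fibroblasts, Mkx in muscle cells, Sox5 in Schwann cells and Egr2 in mast cells. Acan was near 0 outside chondrocytes. Matn1 was at 5.09 and 5.77 CPM in chondrocytes, and its range of 1.03 to 8.03 CPM in Schwann cells spans these values, while it reached 2.21 CPM in mast cells and at most 0.466 CPM in other classes. Levels are CPM of the summed UMIs of a class and compare a gene between classes, not genes with each other. Of neighbours in the order of classes, the ranges over libraries separated chondrocytes from muscle cells for Scx, Schwann cells from chondrocytes, chondrocytes from melanoblasts and melanoblasts from fibroblasts for Sox5, and chondrocytes from fibroblasts for Sox9 and Acan. All other neighbours overlapped.

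**Figure D1:**
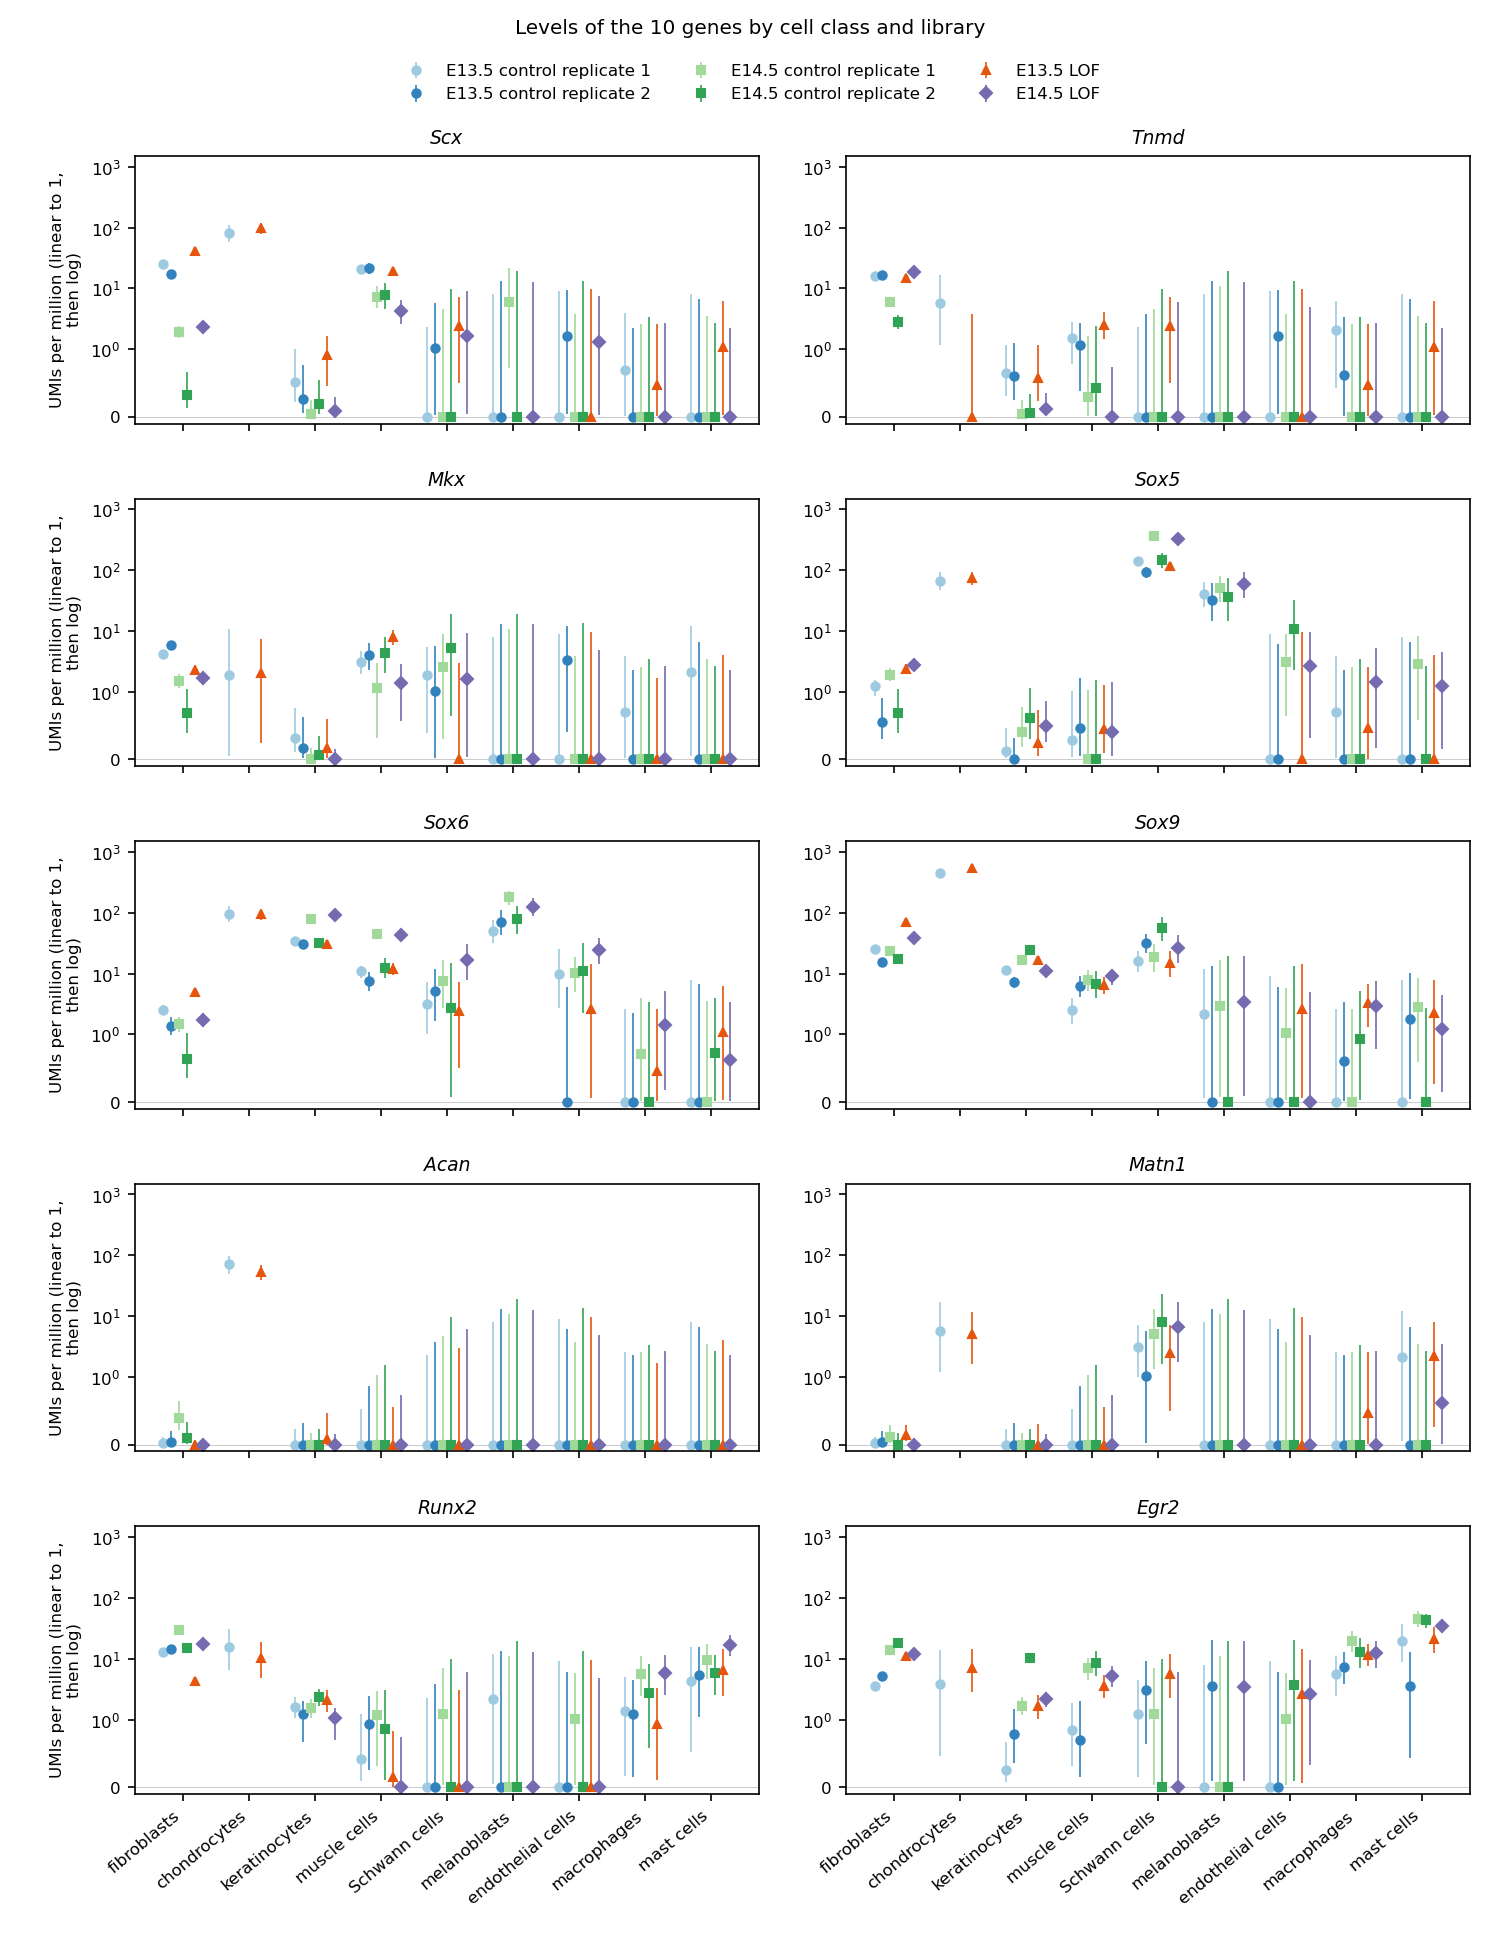
Level of the 10 genes, in CPM on an axis that is linear to 1 and logarithmic above, in each cell class, with 1 point per library that holds at least 20 cells of the class and bars for exact Poisson intervals (95%). Sox9 stands at 452 and 545 CPM in the 2 chondrocyte sums, Sox5 reaches 369 CPM in Schwann cells, and Sox6 reaches 91.7 CPM in keratinocytes.

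Chondrocytes held the cartilage factors at levels far above fibroblasts. In E13.5 control replicate 1 and E13.5 LOF, Sox9 was at 452 and 545 CPM, with a UMI in 93.3% and 94.7% of cells. Both lay above every fibroblast value, which ran from 15.6 to 71.1 CPM. Sox5 was at 67.3 and 73.4 CPM and Sox6 at 96.1 and 95.8 CPM, against highest fibroblast values of 2.77 and 5.05 CPM. In edgeR's quasi-likelihood test over class sums with library as a block, the log2 differences from fibroblasts were 4.03 for Sox9 (SE 0.33, adjusted p = 6.81e-12), 5.66 for Sox5 (SE 0.35, adjusted p = 1.13e-17) and 5.56 for Sox6 (SE 0.47, adjusted p = 1.79e-11). Of 12752 genes tested, 19.9% were called in chondrocytes, 9.16% higher and 10.7% lower. Of the 8 regulators tested, 5 were called higher and 1 lower. One of the 5 is Acan, which passed the count filter through the chondrocyte sums alone, so that its call was fixed by the filter and carries no weight.

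The cartilage matrix genes also lay higher in chondrocytes than in fibroblasts, though Matn1 did not separate chondrocytes from Schwann cells. Acan was at 71.1 and 53.0 CPM in chondrocytes, with a UMI in 60.0% and 43.9% of cells. Its fibroblast sums held 1, 1, 14 and 2 UMIs in E13.5 control replicates 1 and 2 and E14.5 control replicates 1 and 2, and 0 in both LOF libraries, where a count of 0 allows up to 0.0599 and 0.0856 CPM. It was at 0 in all muscle, Schwann, melanoblast, endothelial, macrophage and mast cell sums. Matn1 was at 5.77 and 5.09 CPM, which is 3 and 5 UMIs, and was too sparse for the test. In Schwann cells it held 1 to 5 UMIs per library, 1.03 to 8.03 CPM, and it was at 0 in all keratinocyte, muscle, endothelial and melanoblast sums.

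Scx, the tendon factor, was also found in chondrocytes, at 80.7 and 96.8 CPM with a UMI in 56.7% and 71.9% of cells. That exceeded the fibroblasts of the same libraries, at 25.0 and 40.9 CPM, and the difference passed edgeR's test (log2 difference 1.98, SE 0.43, adjusted p = 0.000541) but not DESeq2 (adjusted p = 0.0678). Tnmd went the other way, with 3 UMIs in the 30 chondrocytes of E13.5 control replicate 1 and 0 UMIs in the 57 of E13.5 LOF, which allows up to 3.06 CPM, against 16.2 and 15.1 CPM in fibroblasts of these libraries. It was called lower in chondrocytes by edgeR (adjusted p = 0.00202), and the call rested on E13.5 LOF, without which the adjusted p was 0.223. Mkx held 1 and 2 UMIs there and was not tested. Runx2 (15.4 and 10.2 CPM) and Egr2 (3.85 and 7.13 CPM) did not pass in chondrocytes.

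Of the other genes of cartilage and tendon, listed with earlier results of these data known, 18 of 19 cartilage genes tested were higher in chondrocytes and 1, Matn2, was lower. The median log2 difference of the list was 4.95, against -0.16 over all genes tested. Only 15 and 17 genes of this list passed the count filter in the stage and genotype fits of fibroblasts. Some of the 19 may thus have passed through the chondrocyte sums alone, as Acan did, and such calls carry no weight. How many did so was not counted. Higher members included the collagens Col9a1 (6.82) and Col11a2 (7.35), the link protein Hapln1 (4.22) and chondromodulin Lect1 (4.95), all as log2 differences. Of 13 tendon genes, Fmod (1.07) and Tnc (3.38) were higher and 7 were lower, among them the proteoglycan Dcn (-4.86). Among 24 upstream and partner genes, 7 were higher, including the joint factor Gdf5 (2.98) and the forkhead factor Foxc1 (5.68), and 8 were lower, including Twist1 (-3.14). Of 4 bone genes, Cbfb, the partner of Runx2, was higher (0.49).

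Cells of E13.5 were also grouped by Col2a1 count, which does not order them in time. In E13.5 control replicate 1, Sox9 was at 22.2 CPM in 4277 fibroblasts without Col2a1, 90.2 CPM in 200 with 1 to 5 UMIs, 398 CPM in 17 cells with 6 to 9 and 436 CPM in 22 with 15 or more. In E13.5 LOF the same classes held 64.1, 200, 626 and 582 CPM. Sox9 was thus higher in cells with 1 to 5 Col2a1 UMIs than in cells at 0. The exact Poisson intervals (95%) of 78.2 to 104 CPM and 183 to 218 CPM do not meet those of cells at 0. Acan held 0 UMIs at a Col2a1 count of 0, then 1 and 0 UMIs at 1 to 5, and 8 and 2 UMIs at 6 to 9. Tnmd was at 14.5 and 14.2 CPM in cells at 0, 49.999 and 31.4 CPM at 1 to 5 and 2.45 and 0 CPM at 15 or more, so its highest values lay in the fibroblasts that hold a little Col2a1. Scx ran from 23.5 and 38.1 CPM at 0 to 56.7 and 91.9 CPM at 1 to 5. The classes of 6 to 9 and 10 to 14 UMIs held 8 to 17 cells each, and all intervals cover counting error only.

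**Figure D2:**
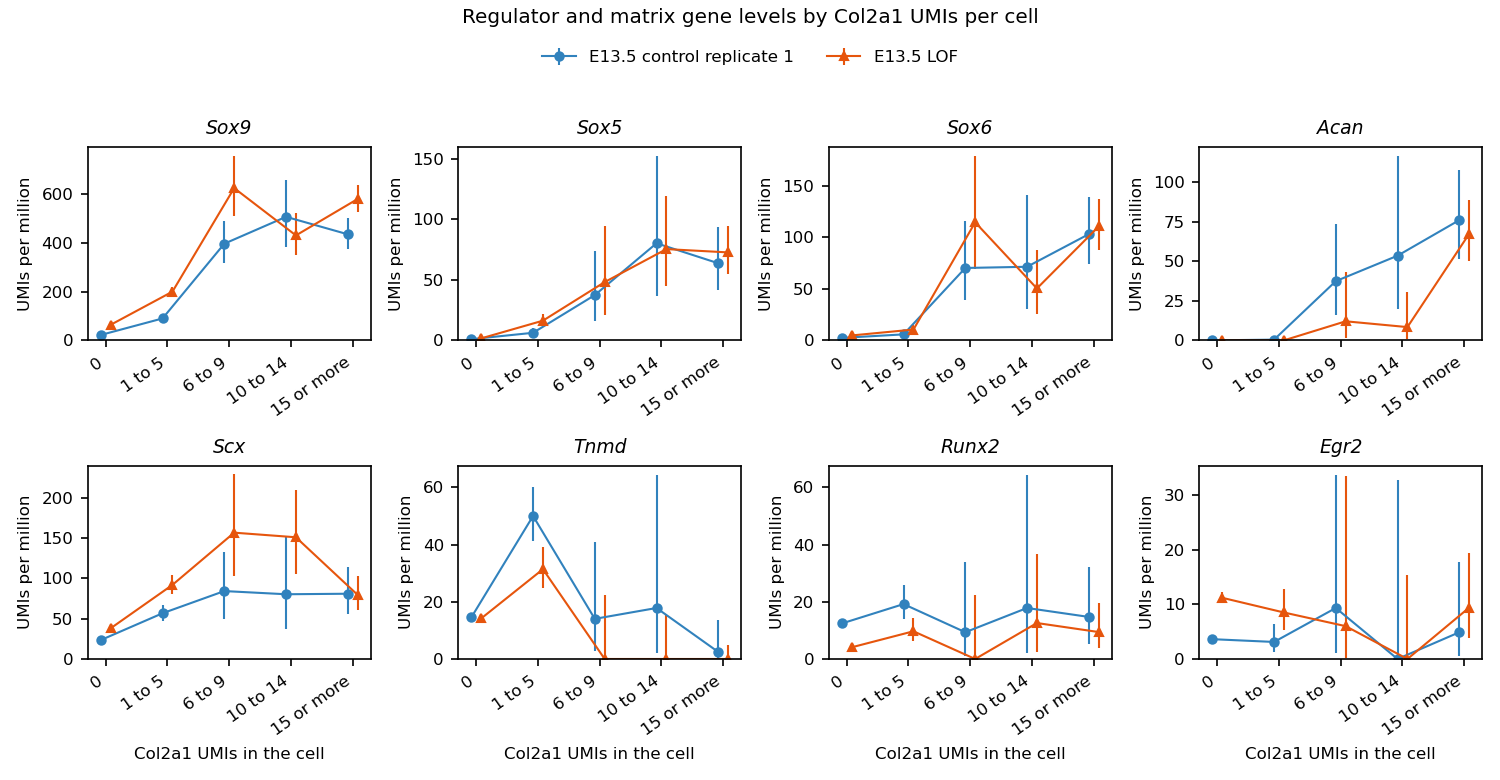
Levels of 8 genes, Sox9, Sox5, Sox6, Acan, Scx, Tnmd, Runx2 and Egr2, in CPM, by the number of Col2a1 UMIs in a cell, for E13.5 control replicate 1 and E13.5 LOF, with exact Poisson intervals (95%). Tnmd peaks at 1 to 5 Col2a1 UMIs (49.999 and 31.4 CPM) while Sox9 and Acan are highest at larger counts.

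In control fibroblasts, levels of Scx, Mkx and Tnmd lay higher at E13.5 than at E14.5, and that of Egr2 lay lower. Marker lists of other cell types moved with stage in the same sums. The muscle list was at 209 and 61.0 CPM in E13.5 controls, 44.4 and 38.5 CPM in E14.5 controls and 212 and 43.3 CPM in E13.5 and E14.5 LOF. The pericyte list was at 47.0 and 38.3, 100.6 and 79.8, and 51.5 and 104 CPM, group by group. Without fibroblasts that meet another list, the stage differences were -4.21 for Scx, -2.29 for Mkx, -1.98 for Tnmd and 1.86 for Egr2 on the log2 scale, against -4.18, -2.16, -1.91 and 1.91 with them. Scx stood at 25.0 and 17.2 CPM in controls of E13.5, at 1.94 and 0.321 CPM in those of E14.5, and at 40.9 (E13.5) and 2.28 CPM (E14.5) in LOF. Every E13.5 library lay above every E14.5 library, for which no share over all genes was counted. The mean of the controls was 18.7-fold lower at E14.5. The share of fibroblasts with an Scx UMI, after each cell was thinned to 2500 UMIs, was 5.16% and 4.56% for E13.5 controls, 0.543% and 0.0704% for E14.5 controls and 8.31% and 0.455% for LOF (unthinned 13.5%, 8.33%, 1.09%, 0.211%, 19.4% and 0.979%). In keratinocytes, which should lack the gene, the thinned share was 0% to 0.127%, so the share in E14.5 control replicate 2 is at the background of free RNA. Fewer cells of a type and less RNA per cell cannot be told apart in such sums.

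For Mkx the controls held 4.25 and 5.78 CPM at E13.5 and 1.53 and 0.687 CPM at E14.5, and LOF held 2.32 and then 1.71 CPM. Control means were 4.53-fold lower at E14.5, and both LOF libraries lay between the lowest E13.5 control and the highest E14.5 control. For Tnmd the controls held 16.2 and 16.7 CPM at E13.5 and 5.88 and 2.84 CPM at E14.5, and LOF held 15.1 and then 18.5 CPM. Its control mean was 3.77-fold lower at E14.5, but E14.5 LOF held the highest value of all 6 libraries. That value came from 195 of 4393 fibroblasts with a Tnmd UMI, against 330 of 4474 in E13.5 LOF. Egr2 ran the opposite way, at 3.61 and 5.19 CPM at E13.5 and 14.2 and 18.1 CPM at E14.5 in controls, a 3.67-fold higher mean, with 11.1 and 11.9 CPM in LOF.

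With 2 libraries against 2, edgeR's quasi-likelihood test called 0 of the 8 regulators tested and 0% of 14428 genes between stages at an adjusted p under 0.05, and 2382 genes had an unadjusted p under 0.05. The log2 difference of Scx had an SE of 0.70 (adjusted p = 0.0920), that of Mkx 0.46 (adjusted p = 0.122), that of Tnmd 0.35 (adjusted p = 0.105) and that of Egr2 0.35 (adjusted p = 0.105). DESeq2 called 826 genes, among them all 4, with adjusted p of 6.25e-10 for Scx, 0.00294 for Mkx, 0.000165 for Tnmd and 0.000398 for Egr2. The calls therefore depended on the tool. They also depended on the library: with any 1 of the 4 controls left out, edgeR called 2 to 5 regulators and 81 to 2845 genes, and Scx had an adjusted p of 1.63e-10 to 0.0367. Both E14.5 controls lay below both E13.5 controls for Scx, Mkx and Tnmd, as for 30% of all genes tested, and above them for Egr2 and Runx2, as for 20.8%.

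Of the cartilage factors, Sox9 showed no such stage pattern in fibroblasts. Sox9 was at 25.3, 15.6, 23.4 and 17.4 CPM in E13.5 control replicates 1 and 2 and E14.5 control replicates 1 and 2, and at 71.1 and 38.2 CPM in E13.5 and E14.5 LOF. The 4 controls overlapped between stages (log2 difference 0.01, SE 0.30, adjusted p = 0.985), and both LOF libraries lay above all 4. Sox6 was at 2.54 and 1.40 CPM in E13.5 controls, 1.47 and 0.641 CPM in E14.5 controls and 5.05 and then 1.74 CPM in LOF. It lay lower at E14.5 in both replicate numbers and in LOF, while the controls of the stages overlapped (log2 difference -0.88, adjusted p = 0.422). Sox5 was at 1.24 and 0.552, 1.91 and 0.687, and 2.397 and 2.77 CPM in these groups. Runx2 was at 12.7 and 14.4 CPM at E13.5 and 29.7 and 15.0 CPM at E14.5 in controls, and at 4.37 and 17.2 CPM in LOF. The high E14.5 value belonged to replicate 1 alone, and the log2 difference between stages was 0.71 (SE 0.33, adjusted p = 0.341).

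**Figure D3:**
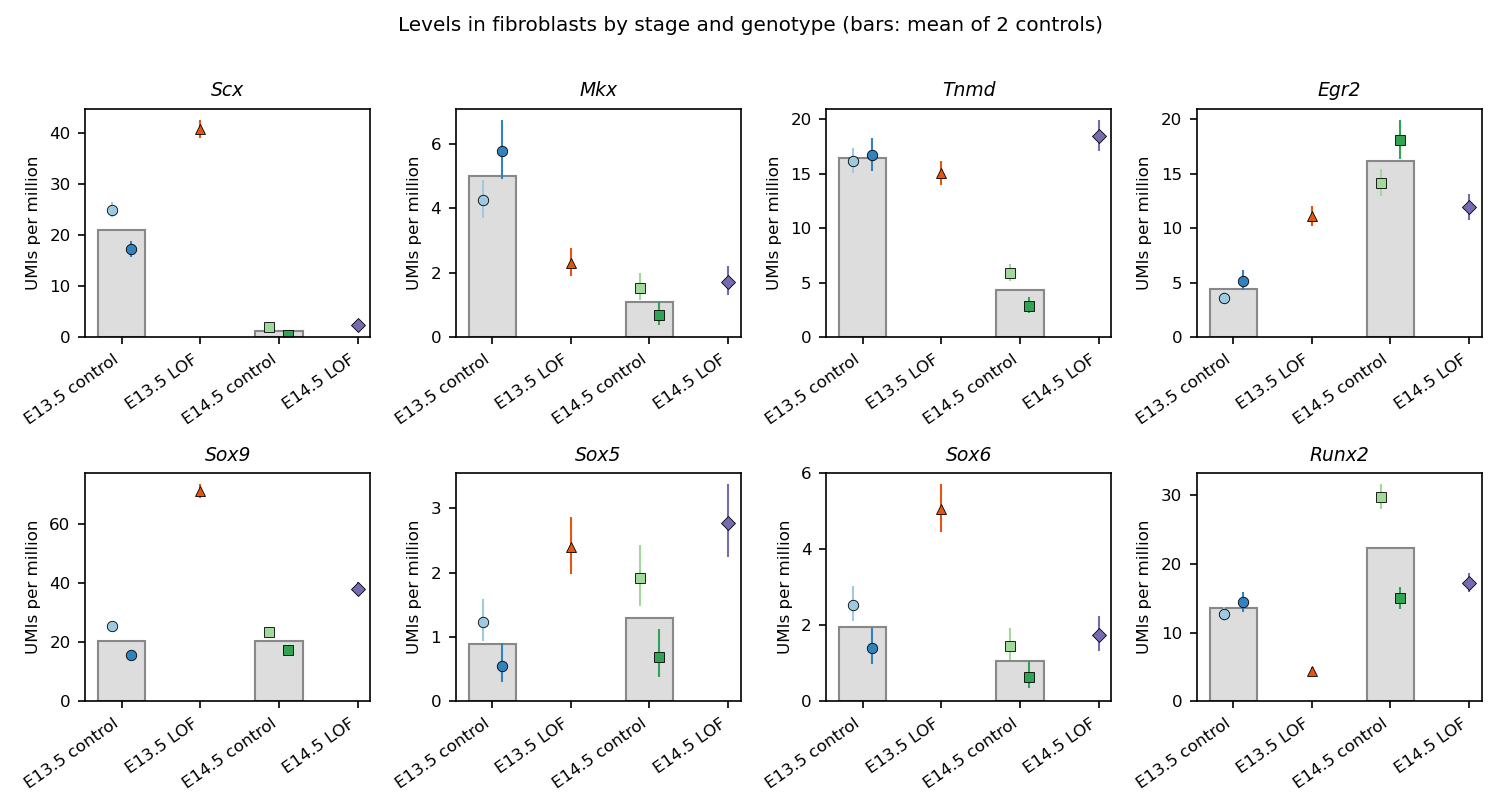
Level of 8 genes in fibroblasts, in CPM, for the 6 libraries by stage and genotype, with grey bars at the mean of the 2 controls of a stage and exact Poisson intervals (95%) on each point. In controls Scx stands at 25.0 and 17.2 CPM at E13.5 and at 1.94 and 0.321 CPM at E14.5, and Sox9 is highest in the 2 LOF libraries, at 71.1 and 38.2 CPM.

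Between genotypes, 20% of all genes tested lay above both controls of their stage in each LOF library. Sox9 was among them and lay above all 4 controls, for which no share over all genes was counted. Its level in LOF fibroblasts was 3.47 times the control mean at E13.5 and 1.87 times at E14.5, and the thinned share of cells with a UMI was 14.4% and 8.38% in LOF against 3.80% to 5.58% in the 4 controls. Over both stages the log2 difference was 1.33 (SE 0.28), which did not pass edgeR's test (adjusted p = 0.397) but did pass DESeq2 (adjusted p = 0.00486). Without the 2 control libraries that hold eGFP it was 1.12 (adjusted p = 0.173), and with library pairs as a covariate 1.13 (adjusted p = 0.180). In keratinocytes, Sox9 was at 7.21 to 24.5 CPM in controls and 16.9 and 11 CPM in LOF, within the control range.

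Scx, Sox5 and Sox6 also lay above both controls of their stage in each LOF library, as did 20% of all genes tested. Scx was 1.94 and 2.02 times the control mean at E13.5 and E14.5, Sox5 2.68 and 2.13 times and Sox6 2.57 and 1.65 times. At E14.5 these ratios rest on the low control replicate 2: LOF against replicates 1 and 2 was 2.28 against 1.94 and 0.321 CPM for Scx, and 1.74 against 1.47 and 0.641 CPM for Sox6. The log2 differences were 0.92 for Scx (adjusted p = 0.785), 1.20 for Sox5 (adjusted p = 0.653) and 1.02 for Sox6 (adjusted p = 0.667) in edgeR's test. Runx2 was lower in E13.5 LOF, at 0.322 times the control mean, and lay between the controls in E14.5 LOF (log2 difference -0.99, SE 0.38, adjusted p = 0.659). Tnmd and Mkx lay below both controls at E13.5 and above both at E14.5, where Mkx was at 1.71 CPM against 1.53 and 0.687 CPM, and Egr2 the reverse. Of 15010 genes tested, edgeR called 0.0133%, which is 2 genes and 0 of the 8 regulators, and 1077 genes, 4 regulators among them, had an unadjusted p under 0.05. DESeq2 called 213 genes and 1 regulator, Sox9.

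Fibroblasts were also split by the reporter, first within the LOF libraries. In E13.5 LOF, Sox9 was at 71.3 CPM (exact Poisson 95% interval 67.9 to 74.8) in 2029 cells with eGFP and no tdTomato UMI and at 58.3 CPM (45.6 to 73.5) in 96 cells with tdTomato and no eGFP UMI. In E14.5 LOF it was at 38.9 CPM (36.3 to 41.8) in 2512 cells and 36.9 CPM (27.3 to 48.8) in 148 cells. The intervals overlapped at both stages. Intervals did not overlap for Sox5 at E14.5, with 1.42 CPM (0.954 to 2.05) in eGFP cells and 6.03 CPM (2.60 to 11.9) in tdTomato cells. They also did not overlap for Sox6 at E13.5, with 3.89 CPM (3.13 to 4.79) and 9.72 CPM (5.02 to 17.0). Scx (37.6 and 29.2 CPM at E13.5), Runx2 (18 and 20.4 CPM at E14.5) and Egr2 (11.6 and 15.8 CPM at E14.5) had overlapping intervals. Most other LOF cells held neither reporter, 2295 at E13.5 and 1711 at E14.5. In these Sox9 was at 71.4 CPM (68.1 to 74.7) and 36.6 CPM (33.4 to 40.05), overlapping eGFP cells at both stages. Scx at E13.5 was at 44.9 CPM (42.3 to 47.5) there, above the interval of eGFP cells (35.1 to 40.2), and Sox5 at E14.5 was at 4.58 CPM (3.49 to 5.89). The controls that hold eGFP were split likewise. In E13.5 and E14.5 control replicate 2, Sox9 was at 11.9 CPM (10.3 to 13.8) and 13.4 CPM (11.2 to 15.8) in eGFP cells against 21.5 CPM (18.8 to 24.5) and 21.2 CPM (18.6 to 24.1) in cells with neither. Sox5 in E14.5 control replicate 2 was at 0.0961 CPM (0.00243 to 0.535) against 1.29 CPM (0.703 to 2.16), so the lower Sox5 of eGFP cells was found in a library labelled wild type too. Scx in E13.5 control replicate 2 was at 14.3 CPM (12.4 to 16.3) in eGFP cells against 22.5 CPM (19.8 to 25.6) in cells with neither. Its lower level in eGFP cells at E13.5 was thus not particular to LOF. In E14.5 control replicate 2 the Scx intervals overlapped. The intervals cover counting error only, and tdTomato UMIs in a fibroblast can be free RNA of keratinocytes.

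Among fibroblasts, Scx, Tnmd and Mkx shared cells more often than independence gives, as did Scx with Sox5 and with Sox6. Egr2 did not do so with Scx or Mkx. Cells with UMIs of both Scx and Tnmd numbered 331 over the 5 libraries where independence gives at least 1 such cell, against 133 if the genes were independent within each library, and the ratio had a median of 3.30 and was above 1 in 5 of 5. For Tnmd and Mkx the median ratio was 4.22, above 1 in 5 of 5 libraries, and for Scx and Mkx 3.48 in 3 of 3. Such an excess was not particular to these 3 genes. The median ratio of Scx was 2.94 with Sox5 and 2.76 with Sox6, each above 1 in 3 of 3. That of Sox9 was 2.10 with Sox5 (5 of 5) and 1.45 with Egr2 (6 of 6). The median ratio of Egr2 was 0.814 with Scx (above 1 in 1 of 5), 0.674 with Mkx (2 of 6) and 1.12 with Tnmd (4 of 6). Scx and Sox9 were near independence, at 1.07. Mkx and Sox9 were found together less often than that in 6 of 6 libraries, at a median of 0.662. These are descriptions over cells that share a library and a depth, and thinning gave 3.28 for Scx and Tnmd and 6.01 for Tnmd and Mkx. For Mkx and Sox9 it gave 0.522, above 1 in 1 of 4 libraries, from 5 cells with both.

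Fibroblasts with an Scx UMI were compared with those without in the 5 libraries that hold at least 20 of them, a comparison added after the data were seen. Tnmd was at 51.6, 72.1, 162, 21.3 and 812 CPM in Scx-positive cells of E13.5 control replicates 1 and 2, E14.5 control replicate 1, E13.5 LOF and E14.5 LOF, against 10.3, 12.4, 4.12, 13.6 and 10.5 CPM in Scx-negative cells. It was higher in 5 of 5 libraries, most of all at E14.5, where Scx-positive cells were few (36 and 43). The Tnmd level of all E14.5 LOF fibroblasts thus includes 43 cells at 812 CPM, and their part in it was not tested. Mkx was likewise higher in 5 of 5, at 5.37 to 71.2 CPM against 0.982 to 4.13 CPM. Neither passed edgeR's test (log2 difference 3.18, adjusted p = 0.188 for Tnmd, and 3.33, adjusted p = 0.0852 for Mkx), and both passed DESeq2 (adjusted p = 0.00192 and 3.71e-05). The libraries differed greatly in size of effect.

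Sox6 and Sox5 were called higher in Scx-positive fibroblasts, which also carried other tendon and cartilage genes. Sox6 was at 6.98, 8.13, 7.49, 14.1 and 28.5 CPM in Scx-positive cells against 1.80, 0.874, 1.40, 2.93 and 1.47 CPM in the others (log2 difference 2.56, SE 0.30, edgeR adjusted p = 2.43e-05). Sox5 differed by 1.73 (SE 0.33, adjusted p = 0.001995), and without E13.5 control replicate 1 its adjusted p was 0.0538. Of 14355 genes, 10.3% were called, and 4.98% were called higher and 5.32% lower. Of 16 tendon genes tested, 7 were higher, among them Fmod (1.87), the matrix proteins Tnc (3.05) and Thbs4 (3.05) and Chodl (2.87), and Kera was lower. Of 15 cartilage genes, 5 were higher, including Col9a2 (1.35) and Mia (1.77), and Matn2 was lower. The homeobox factor Meox1 (3.08), of somites, was among the genes with the largest differences, and Sp5 (-3.07) and Dkk1 (-2.99), both of the Wnt pathway, and Thy1 (-2.44) were lower. Chodl no longer passed without cells that meet another list (adjusted p = 0.0643).

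In the reverse comparisons, Scx was higher in fibroblasts positive for either Sox5 or Sox6. These comparisons share their cells with the one above and are no independent support for it. In Sox5-positive fibroblasts of 4 libraries, Scx (log2 difference 1.56, SE 0.20, adjusted p = 7.54e-10) and Sox9 (1.35, SE 0.13, adjusted p = 1.96e-14) were higher, where 13.2% of genes were called, 5.83% higher and 7.33% lower. Between 13% and 50% of Sox5-positive cells met the Schwann list, against 0.251% to 0.832% of Sox5-negative ones, and the glial gene Fabp7 was 5.24 higher on the log2 scale. Without cells that meet another list, Scx and Sox9 still differed, by 2.06 and 1.64, and Fabp7 by 2.68 (adjusted p = 0.00828). In Sox6-positive fibroblasts, Scx was higher by 1.31 (SE 0.17, adjusted p = 2.73e-07), with 11.4% of genes called, 4.03% higher and 7.36% lower. There the muscle list was met by 3.45% to 29.5% of positive and 0.476% to 5.57% of negative cells. The muscle gene Actc1 differed by 2.92 with and 0.01 without cells that meet another list. Actc1 is on the muscle list itself, so its fall was fixed by the removal and carries no weight. The mesothelial factor Wt1 was higher by 2.71 with and 3.03 without such cells. Sox9 differed by 0.51 (adjusted p = 0.0270), but by 0.0488 (adjusted p = 0.912) with doublets kept and 0.0839 (adjusted p = 0.857) in fibroblasts with Col2a1 at 0, and it did not pass DESeq2 (adjusted p = 0.0817) or, in edgeR, without any 1 of the 3 controls that enter.

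Tnmd-positive fibroblasts, 53 to 339 per library, held more Mkx. In E13.5 control replicates 1 and 2, E14.5 control replicates 1 and 2, E13.5 LOF and E14.5 LOF, Mkx was at 20.5, 14.1, 14.3, 0, 5.54 and 15.7 CPM in Tnmd-positive cells against 2.89, 5.05, 1.06, 0.704, 2.04 and 0.99 CPM in Tnmd-negative cells. It was higher in 5 of 6 libraries (log2 difference 2.49, SE 0.44, edgeR adjusted p = 0.0161), and without E13.5 control replicate 1 the adjusted p was 0.0618. Scx, higher in the same 5 libraries, did not pass edgeR (2.22, adjusted p = 0.183) but passed DESeq2 (adjusted p = 0.0198). Of 14217 genes, 8.41% were called, and 3.18% were called higher and 5.23% lower. Of 14 tendon genes, 6 were higher, among them Tnc (1.90), Fmod (1.13), Aspn (1.16) and Chodl (1.40), and Egr1 was lower (-0.27). Among genes with a mean log2 CPM of 4 or more and 1 direction in every library, C1qtnf3 (3.60) and the contractile genes Acta2 (2.06), Mylk (1.98) and Tagln (1.80) were higher, all still past the test without cells that meet another list. Serpinc1 (-2.68), Msc (-2.35), Casz1 (-2.31) and Ass1 (-2.26) were lower. Of these, Msc no longer passed edgeR's test without cells that meet another list (-0.08, adjusted p = 0.961). The pericyte list was met by 1.23% to 11.8% of Tnmd-positive and 0.681% to 4.26% of negative cells.

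In Mkx-positive fibroblasts of 5 libraries, Sox9 was lower. It was at 14.4, 9.07, 17.4, 24.3 and 14.2 CPM, against 25.7, 15.8, 23.5, 72.3 and 38.5 CPM in Mkx-negative cells of E13.5 control replicates 1 and 2, E14.5 control replicate 1, E13.5 LOF and E14.5 LOF. It was lower in 5 of 5 (log2 difference -1.13, SE 0.19, adjusted p = 5.30e-05), beside 5.5% of genes called, 1.94% higher and 3.56% lower. Sox6 was called higher (1.35, adjusted p = 0.0478), but not without cells that meet another list (adjusted p = 0.154). The muscle list was met by 0% to 32.6% of Mkx-positive and 0.521% to 5.2% of negative cells, and the Schwann list by 0% to 8.89% and 0.228% to 1.45%. Without cells that meet another list, Sox9 differed by -0.80 (adjusted p = 0.00105). Mgp (2.43), Pamr1 (2.004) and Pdgfc (1.94) were higher, and of 14 tendon genes 5 were higher and 2, Kera and Dcn, were lower.

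Sox9-positive fibroblasts numbered 204 to 1588 per library. Their Mkx level comes from the same fibroblasts as the comparison above, so it is no independent support. Mkx was lower in 6 of 6 libraries (log2 difference -1.08, SE 0.24, adjusted p = 0.00544), and Sox5 (1.66, SE 0.23, adjusted p = 0.000202) and Egr2 (0.56, SE 0.09, adjusted p = 0.000934) were higher in 6 of 6. Of 14799 genes, 22.4% were called, and 9.08% were called higher and 13.3% lower. Of 15 cartilage genes, 6 were higher and 0 lower, among them Col9a2 (1.23), Matn4 (1.24), Lect1 (2.004) and Mia (1.87). Of 9 bone genes, Dlx5 (1.76), Dlx6 (2.15) and Alpl were higher and 0 lower, with a list median of -0.04 against -0.02 over all genes. Of 28 upstream and partner genes, 7 were higher, among them Gdf5 (1.88) and Foxc1 (1.91), and 6 were lower, among them Twist1, Tgfb1 and Pax1. S100b (2.34), a gene of cartilage and glia, was among the higher genes, and Sp5 (-2.96), Dkk1 (-2.13), Casz1 (-2.67) and Nrgn (-2.41) among the lower ones. These held without cells that meet another list, at 2.39 for S100b and -2.98 for Sp5.

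Runx2-positive fibroblasts, 197 to 811 per library, had 0 of 7 other regulators called, where 4.52% of 14106 genes were called, 2.34% higher and 2.18% lower, and 1 regulator had an unadjusted p under 0.05. Their Sox9 levels are given by stage. Sox9 was at 29.3, 11.8 and 91.3 CPM in Runx2-positive cells of E13.5 control replicates 1 and 2 and E13.5 LOF, against 24.8, 16.1 and 70.1 CPM in Runx2-negative cells. At E14.5 it was at 6.54, 2.86 and 10.8 CPM in control replicates 1 and 2 and LOF, against 29.3, 19.2 and 41.8 CPM. Cells with both genes numbered 0.998, 0.842 and 1.10 times the number under independence at E13.5, and 0.389, 0.236 and 0.346 times at E14.5. The 3 libraries of each stage did not overlap, and the difference between stages was not tested. How many other gene pairs separate the stages in this way was not counted. After thinning, the ratio of Sox9 and Runx2 ran from 0 to 2.10 over 6 libraries, with 31 cells holding both. Of the bone list, Sp7, a factor downstream of Runx2, was higher in Runx2-positive cells, 1 of 8 genes tested. Grem1 (1.04), a BMP antagonist, and Ctnna2 (1.04) were among the higher named genes, and Pdgfa (-1.57), Htra3 (-1.44) and Scara5 (-1.81) among the lower.

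Egr2-positive fibroblasts, 129 to 455 per library, held more Sox9 (log2 difference 0.37, SE 0.06, adjusted p = 0.000466) and less Runx2 (-0.46, SE 0.10, adjusted p = 0.00605), each in 6 of 6 libraries. Of 14050 genes, 4.58% were called, and 2.14% were called higher and 2.43% lower. The Runx2 difference did not pass DESeq2 (adjusted p = 0.0764) nor the fit without cells that meet another list (adjusted p = 0.0638). Sox5, higher by 0.95 (adjusted p = 0.0313), was lost without those cells (adjusted p = 0.818). The pericyte list was met by 3.08% to 11.4% of Egr2-positive and 0.557% to 3.48% of negative cells. The pericyte genes Abcc9 (1.04) and Kcnj8 (0.96) were higher, of which Kcnj8 still passed without cells that meet another list (0.56). Both genes are on the pericyte list itself, so the removal of such cells lowers their differences by construction. Egr1, a related factor, and the tendon genes Thbs2 and Aspn were called higher, 3 of 15 tendon genes tested.

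**Figure D4:**
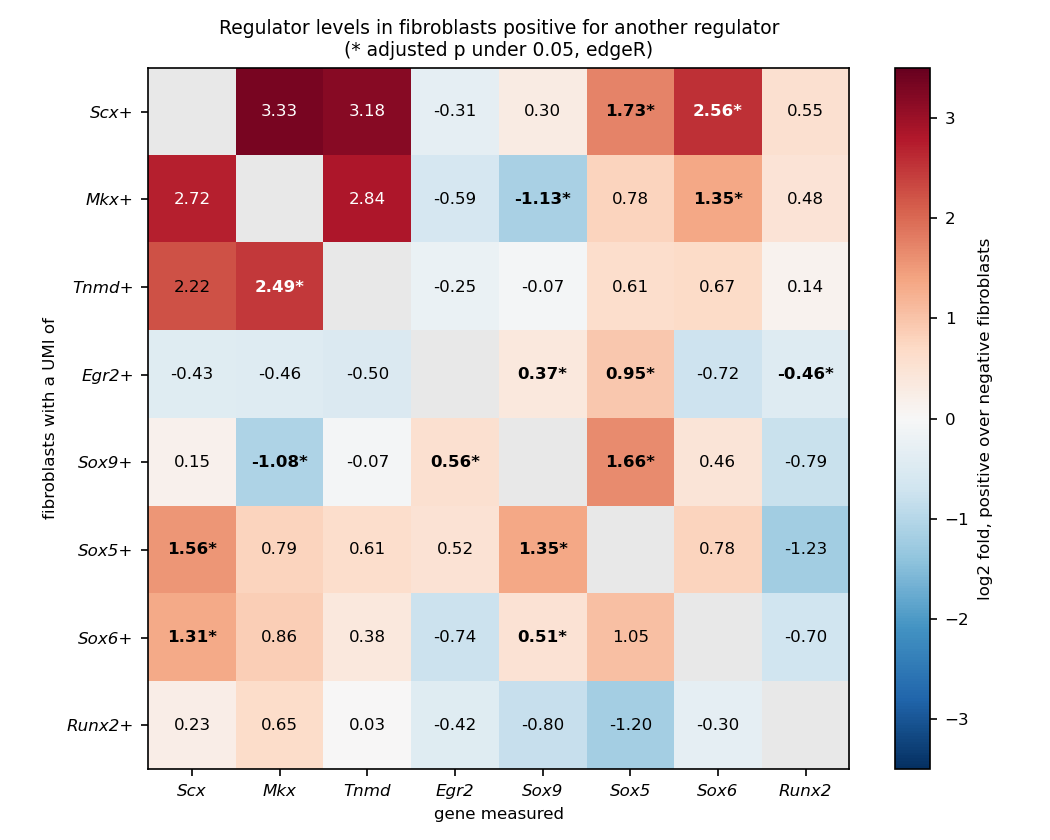
Colour map of the log2 difference of each gene measured (columns) between fibroblasts with and without a UMI of another gene (rows), with a star for differences past edgeR's test at an adjusted p of 0.05. Sox5 and Sox6 are higher in Scx-positive cells (1.73 and 2.56), and Sox9 is lower in Mkx-positive cells (-1.13).

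In keratinocytes, Sox6, Sox9, Egr2 and Runx2 had enough counts for a test. Sox6 was at 34.1, 30.1, 80.2 and 31.9 CPM in E13.5 control replicates 1 and 2 and E14.5 control replicates 1 and 2, and at 31 and 91.7 CPM in E13.5 and E14.5 LOF. Replicate 1 of the E14.5 controls and LOF of E14.5 stood apart from the other 4. Against fibroblasts Sox6 was higher by 4.46 on the log2 scale (adjusted p = 4.31e-16), and 6 of the 8 regulators tested were lower, where 71.2% of genes were called, 34.9% higher and 36.3% lower. Between stages, Sox9 was at 11.6 and 7.21 CPM at E13.5 and 16.8 and 24.5 CPM at E14.5 in controls (log2 difference 1.20, SE 0.38, adjusted p = 0.227). Egr2 was at 0.258 and 0.782 CPM against 1.68 and 10.3 CPM (log2 difference 3.67, SE 1.07, adjusted p = 0.195). Both lay higher in both E14.5 controls, for which no share over all genes was counted in keratinocytes. Neither was called by edgeR, which called 1.24% of 12567 genes (0.931% higher and 0.31% lower), while DESeq2 called Egr2 (adjusted p = 0.00410) and not Sox9 (adjusted p = 0.0903). Between genotypes 0 of the 4 and 0% of 12884 genes were called, with 225 genes at an unadjusted p under 0.05 and 8 genes called by DESeq2.

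The same 2 libraries stood apart for Sox6 and Sox5 in other classes. In muscle cells, Sox6 was at 45.5 and 43.1 CPM in these, E14.5 control replicate 1 and LOF, against 7.50 to 12.4 CPM in the other 4 libraries. In melanoblasts it was at 179 and 125 CPM there against 49.9 to 78.6 CPM in the other 3 with at least 20 cells. Sox5 in Schwann cells was at 369 and 323 CPM there against 91.7 to 144 CPM. These are the 2 libraries with Gm42418 above 1000 CPM, and its part in the levels was not tested. E14.5 control replicate 2, of the same stage and labelled genotype as E14.5 control replicate 1, stayed with the E13.5 libraries in each case.

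Against fibroblasts, Sox5 in Schwann cells was higher by 6.77 on the log2 scale (SE 0.23, adjusted p = 1.64e-28), beside 44.9% of genes called, 19.4% higher and 25.5% lower. In melanoblasts Sox5 (4.67, adjusted p = 1.73e-15) and Sox6 (5.21, adjusted p = 1.10e-12) were higher, beside 37.7% of genes called (14.2% higher and 23.5% lower). In muscle cells Sox6 was higher by 3.23, beside 64.8% of genes called (29.1% higher and 35.7% lower), and Scx by 0.73 (adjusted p = 0.0348). Scx in muscle cells was at 20.7, 21.6, 7.33, 7.71, 19.0 and 4.21 CPM in E13.5 control replicates 1 and 2, E14.5 control replicates 1 and 2, E13.5 LOF and E14.5 LOF. The 3 E13.5 libraries lay above the 3 E14.5 ones, for which no share over all genes was counted in muscle cells. The call of Scx in muscle cells against fibroblasts was lost in DESeq2 (adjusted p = 0.330) and without cells that meet another list (adjusted p = 0.103). In mast cells Egr2 was higher by 1.47 (SE 0.29, adjusted p = 2.23e-05), at 3.61 to 45.9 CPM, beside 28.5% of genes higher and 39.5% lower, 68% in all. In endothelial cells Sox6 was higher by 1.91 (adjusted p = 0.0119), from 0 to 18 UMIs per library, a call lost without E14.5 LOF (1.37, adjusted p = 0.166), beside 20.5% of genes higher and 28.3% lower, 48.8% in all. In macrophages 5 of the 8 were lower and 0 higher, beside 30.5% of genes higher and 40.1% lower (70.6% in all), and Egr2 was at 5.58 to 19.8 CPM. Of the 5, Sox5 was not called by edgeR without cells that meet another list (-0.85, adjusted p = 0.465). Without a low-count filter it was not called either (adjusted p = 0.0610).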

How the data were processed

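Each library was deposited by the authors as a matrix of raw UMI counts per gene and barcode (28000 genes), read with its own gene and barcode lists. Per the submitters' processing notes, Cell Ranger and Seurat were used with build mm10 (GRCm38); versions and the use of strand in counting are not given in the sources used here. The genes and lists were chosen with earlier results of these data known.

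Kept barcodes had 1000 or more UMIs, 500 or more genes, and no more than 10% of UMIs from mitochondrial genes. Doublets were predicted from simulated doublets (40 neighbours, 30 principal components, 2000 variable genes, 0.8% per 1000 cells, seed 1), and 4.68% to 7.14% per library, 2256 barcodes in all, were removed. The lowest barcode held 2568 UMIs, so the UMI filter removed no barcode. Raw counts were summed per library and class (at least 20 cells), and CPM was computed from these sums. Shares of cells with a UMI were taken after thinning each cell to 2500 UMIs. Intervals (95%, exact Poisson) and limits for a count of 0 (3 UMIs) cover counting error only.

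Sums were tested over all genes with edgeR 4.0.16 (quasi-likelihood, TMM factors, filterByExpr), with Benjamini-Hochberg adjustment and a threshold of 0.05. Stage used the 4 controls, genotype all 6 libraries with stage as a term, and class and positive-against-negative fits used library as a block. With library pairs as a covariate, the stage fit used all 6 libraries with genotype as a term. DESeq2 1.42.0, RLE factors, no filter, doublets kept, stricter classes, the replicate block, library pairs and leaving out each library were the alternatives. Named genes are the 10 regulators, list genes past the test, and up to 10 genes per positive fit with the largest difference among those past the threshold, a mean log2 CPM of 4 or more, and 1 direction in every library. The test was checked on simulated counts, where stage fits recovered 76% and genotype fits 93% of genes changed by a log2 fold of 1 (14413 and 14851 genes). These fits made 10 and 13 false calls. The simulation gave all genes the same fixed spread between libraries, which was not taken from these data. The shares recovered are therefore not the power of the fits on these data. Python 3.11.15 and R 4.3.3 were used.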

Additional observations from a re-analysis of the deposited data

Results flagged for a closer look

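For 3 genes the LOF library lay on opposite sides of both controls at the 2 stages, and the difference between stages was not tested. Tnmd in LOF fibroblasts was 0.916 times the control mean at E13.5 and 4.24 times at E14.5. In E14.5 LOF, 43 Scx-positive fibroblasts held Tnmd at a far higher level than the other fibroblasts, and their part in the second ratio was not tested. Mkx was 0.462 times at E13.5 and 1.55 times at E14.5, where LOF held 1.71 CPM against 1.53 and 0.687 CPM in control replicates 1 and 2, so the second ratio rests on the low replicate 2. Egr2 was 2.52 times at E13.5 and 0.738 times at E14.5. Each ratio rests on 1 LOF library.

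Reporter RNA, which belongs to no comparison of the regulators, was found in libraries labelled wild type. Fibroblasts of E13.5 control replicate 2 held 117 CPM of eGFP and those of E14.5 control replicate 2 held 89.0 CPM, against 2.95 and 5.55 CPM in the other control of each stage.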

How the results depend on the processing

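With 1 or 2 libraries a group, precision is set by the number of libraries rather than by depth, apart from Acan, Matn1, Sox5, Sox6 and Mkx, which held few UMIs in fibroblasts. Leaving out a library can leave a group with 1 sample, which is then assumed to vary like the others. The labels say nothing of what controls with 1 replicate number share. The deviations of replicate 1 from the control mean of its stage correlate between stages at 0.355 over the 14428 genes of the fibroblast stage fit. Both replicate 2 libraries hold eGFP (117 and 89.0 CPM) and high Gstp1 (147 and 125 CPM, against 22.0 to 31.7 CPM in the other 4). The cause of the changes below was not tested.

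Between stages in fibroblasts, 0 regulators and 0 genes were called; without a low-count filter 3 and 475, with DESeq2 4 and 826, with the replicate block 4 and 961, with library pairs as covariate 2 and 2322, and with 1 library left out 2 to 5 and 81 to 2845. In keratinocytes, where 0 regulators and 156 genes were called, the same settings gave 1 and 710, 1 and 609, 2 and 1313, 2 and 1435, and 1 with 222 to 2759. The fit with library pairs took in the LOF libraries with genotype as a term. Stage in it rested on the replicate 2 controls, the only pair that holds both stages. The replicate block moved the counts of both stage comparisons. Its calls were Scx (adjusted p = 0.00163), Tnmd (0.00860), Mkx (0.0229) and Egr2 (0.00501) in fibroblasts, and Sox9 (0.0318) and Egr2 (6.25e-05) in keratinocytes, all by edgeR.

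Between genotypes in fibroblasts, 0 regulators and 2 genes were called; DESeq2 gave 1 and 213, library pairs 0 and 516, controls with little eGFP (chosen after seeing the data) 0 and 489, doublets kept or cells of another list left out 0 and 0, and leaving out 1 library 0 with 0 to 1 genes. In keratinocytes 0 genes became 8 with DESeq2 and 3 with either library pairs or controls with little eGFP, and 0 in each leave-out.

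Class fits gave 47 regulator calls and 54312 gene calls over 8 classes (44 to 52 and 49619 to 51929 with 1 library left out). The 4 planned positive fits gave 7 and 5790 (5 to 8 and 3669 to 5933), and the 4 added ones 8 and 5767 (6 to 10 and 3886 to 6195).

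Directions turned only for regulators that were not called. Stage in fibroblasts: Sox6 0.0344 with doublets kept, Sox5 -1.13 and Sox9 -0.0539 without cells of another list, and Sox5 -0.28 to 1.16 and Sox9 -0.27 to 0.33 with 1 library left out. Genotype in fibroblasts, 1 library left out: Mkx -1.15 to 0.56, Egr2 -0.53 to 1.29 and Tnmd -0.16 to 2.03. Genotype in keratinocytes: Sox9 -0.0094 with RLE factors, -0.0017 with doublets kept, -0.0452 with library pairs, -0.0436 with controls with little eGFP; Egr2 0.22 with DESeq2, 0.96 with pairs, 0.997 with little eGFP; and with 1 library left out Sox9 -0.96 to 0.84, Egr2 -1.55 to 1.71, Runx2 -0.91 to 0.54 and Sox6 -0.0558 to 0.71. Acan against fibroblasts with DESeq2: Schwann cells 1.55, melanoblasts 3.08, endothelial cells 2.43, macrophages 1.04 and mast cells 1.71. With 1 library left out, Sox5 in endothelial cells was -0.23 to 0.73, Egr2 in chondrocytes -0.59 to 0.08 and Sox9 in Schwann cells -0.70 to 0.0238.

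In Runx2-positive fibroblasts Tnmd was -0.16 with DESeq2, -0.0061 with doublets kept and -0.29 to 0.32 with 1 library left out, and Sox6 0.0516 with doublets kept. In Tnmd-positive fibroblasts Sox9 was 0.0286 with doublets kept and -0.20 to 0.0474 with 1 library left out, where Runx2 was -0.15 to 0.34 and Sox6 -0.0611 to 1.26. In Sox9-positive fibroblasts Scx was -0.077 with Col2a1 at 0 and -0.0208 to 0.32 with 1 library left out, where Tnmd was -0.18 to 0.21. In the added fits, Sox6-positive fibroblasts had Tnmd -0.51 and Mkx -0.11 with doublets kept, Tnmd -0.13 with Col2a1 at 0 and -0.11 to 0.84 with 1 library left out, and Scx-positive fibroblasts had Sox9 -0.0636 with Col2a1 at 0.

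Unthinned mean shares of fibroblasts with a UMI were 7.25% for Scx, 5.32% for Tnmd, 1.97% for Mkx, 1.16% for Sox5, 1.76% for Sox6, 16.1% for Sox9, 0.0610% for Acan, 0.0514% for Matn1, 12.1% for Runx2 and 8.24% for Egr2, all above the thinned means of 3.18%, 2.29%, 0.666%, 0.323%, 0.486%, 6.83%, 0.00372%, 0.00745%, 4.00% and 2.48%.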

Other observations

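Genes that were lower recurred across the positive fibroblasts. The Wnt-responsive factor Sp5 was lower, by edgeR's test, in Scx-positive (-3.07), Sox9-positive (-2.96), Sox5-positive (-3.66), Sox6-positive (-2.30), Mkx-positive (-2.04) and Egr2-positive (-0.98) fibroblasts, on the log2 scale. Casz1, a zinc-finger factor, was lower in Scx-positive (-2.62), Sox9-positive (-2.67) and Tnmd-positive (-2.31) fibroblasts. Ass1, an enzyme of arginine synthesis, was lower in Tnmd-positive (-2.26), Mkx-positive (-2.27) and Sox6-positive (-2.02) fibroblasts. These fits share their cells, so the recurrence is no independent support.

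Of 28 upstream and partner genes tested, 6 were higher and 7 lower in Tnmd-positive fibroblasts, and 6 were higher and 5 lower in Mkx-positive ones. Tgfb1 was lower in both (-1.01 and -0.88). Fgf18 was higher in Tnmd-positive (1.28) and Mkx-positive (1.55) fibroblasts. Tgfb3 was higher in Scx-positive (1.93) and Mkx-positive (1.61) fibroblasts, and Tgfb2 in Tnmd-positive (1.22) and Mkx-positive (1.68) ones. Twist1 was lower in Scx-positive (-1.01), Tnmd-positive (-0.26), Sox9-positive (-0.63) and Mkx-positive (-0.84) fibroblasts. Among genes of bone, Dlx5 was lower (-1.11) in Scx-positive and higher (1.76) in Sox9-positive fibroblasts.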
